A study of Homo sapiens with 6 samples.

Results

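The transcripts described here are those of 66 DNAJ and HSP chaperone genes, out of 17471 genes with values in 6 RNA-seq libraries of AN3CA, a cell line established from a human endometrial cancer. The members were chosen by name alone: *DNAJA*, *DNAJB* and *DNAJC* genes, *HSPA* genes other than *HSPA5*, *HSPB* genes, *HSP90A* genes, and *HSPD1*, *HSPE1* and *HSPH1*. The family was put forward with the results of this comparison already known, and *DNAJC22* gave it its name because of its difference, so *DNAJC22* is described here by its values, with no test. All cells were AN3CA transduced with a lentivirus and selected with puromycin. The 3 shEV libraries (genotype WT in the labels) came from cells with an empty hairpin vector, and the 3 shPAX2 libraries (PAX2 KD) from cells with 1 short hairpin RNA (no second hairpin was analysed here) against *PAX2*, a transcription factor of the Müllerian duct epithelium. The study's text elsewhere calls the AN3CA control scrambled.

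Heat shock proteins of the Hsp70 class (*HSPA*) bind unfolded stretches of other proteins and release them in cycles of ATP use. J proteins (the *DNAJ* genes) deliver clients to Hsp70 and trigger that ATP use, and exchange factors such as *HSPA4*, *HSPA4L* and *HSPH1* reset the cycle. Hsp90 (*HSP90A*) takes kinases and steroid hormone receptors to their active fold, Hsp60 and Hsp10 (*HSPD1*, *HSPE1*) fold proteins inside mitochondria, and the small heat shock proteins (*HSPB*) hold unfolding proteins in solution without ATP. Many, though not all, of these genes respond to heat shock factors, which bind arrays of short GAA units.

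Values are TPM, a share of all transcripts of a library corrected for the length of each gene, so levels can be compared between genes where those lengths hold. In shPAX2 replicate 1, *HSPA8* had 96429 recovered reads at 2718 TPM, but *HSPA1B* had 3425 at 17.8 TPM and *HSPA1A* 168 at 0.904 TPM. *HSPA1L* and *BAG6* also had many reads for their TPM, so the levels of these *HSPA1* genes and *BAG6* may be understated. Within a gene, the same length applies to every library. *PAX2* had 4.03, 3.66 and 2.74 TPM in the shEV libraries and 0.916, 0.723 and 1.17 TPM in the shPAX2 libraries, a mean that was 26.9% of the control. The recovered read totals ran from 10730909 to 18221859 in shEV and from 19422615 to 29405787 in shPAX2, so each shPAX2 library was deeper than each shEV library, and the part of depth in any difference cannot be told apart from the group. The labels call the cells epithelial, but *CDH1*, *EPCAM*, *KRT8*, *KRT19* and *MUC1* stayed under 0.387 TPM in every library and only *KRT18*, at 10.2 to 17.5 TPM, was well detected. Of the fibroblast markers listed, *DCN* and *LUM* had no values, which left *COL1A1* and *COL1A2*. Their sum was 810 to 857 TPM in shEV and 361 to 440 TPM in shPAX2, nearly all of it *COL1A2*. Its part in the differences below was not tested. Summed endothelial markers (*PECAM1* had no values) were at most 0.0611 TPM in any library. Summed leukocyte markers (*CD3E* had no values) were at most 2.45 TPM. Nothing in the labels says that the libraries of a group came from separate cultures, so p-values measure only the spread between these libraries.

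*DNAJC22* encodes a J protein that spans the membrane and whose fly relative acts in endocytosis. The gene lies at chr12:49740671-49751329 on the plus strand (GRCh37). Its level was 69.2, 69.0 and 71.2 TPM in shEV replicates 1 to 3, and 17.9, 15.7 and 17.1 TPM in shPAX2 replicates 1 to 3. The groups were far apart and each was tight. The mean fell from 69.8 ± 1.22 to 16.9 ± 1.10 TPM (SD, n = 3 each), which is 24.2% of the control, and the log2 fold change was −2.02 (SE 0.06). Fold changes throughout are differences of mean log2(TPM + 0.5), shPAX2 minus shEV. In shEV cells *DNAJC22* stood 5th in mean level among the 26 *DNAJC* genes, and in shPAX2 cells it stood 16th. It made up 6.21% of the summed *DNAJC* level in shEV and 1.62% in shPAX2. Among all 13163 genes tested its fold change was the 83rd from the lowest. In bulk RNA, fewer cells with the transcript and less transcript per cell cannot be told apart, here or for any gene below.

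**Figure D1:**
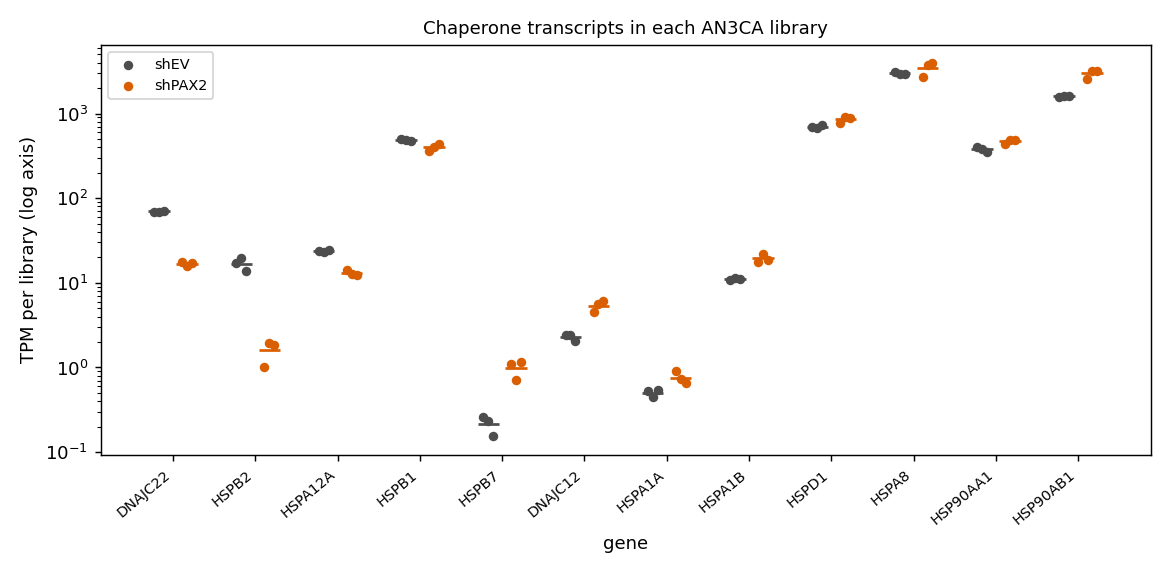
TPM of 12 chaperone genes in each library on a log axis, with grey points for the 3 shEV libraries, orange points for the 3 shPAX2 libraries and a short line at each group mean. *DNAJC22* sits at 69.0 to 71.2 TPM in shEV and at 15.7 to 17.9 TPM in shPAX2, while *HSP90AB1*, near the top, is at 2593 TPM or more in every shPAX2 library.

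The other members were tested within a fit across all 13163 genes that reached 0.5 TPM in at least 3 libraries. This filter kept 56 of the 66 members. Leaving *DNAJC22* aside, 8 of the other 55 were higher in shPAX2 and 13 were lower at a Benjamini-Hochberg adjusted p under 0.05 (limma), or 14.5% and 23.6%, while 12.2% of all genes tested were higher and 30.5% were lower. With a log2 fold change of at least 1 required as well, *HSPB7* and *DNAJC12* were higher and *HSPB2* lower, while 1.43% of all genes were higher and 3.11% lower. *HSPB7* reached the filter only through the shPAX2 libraries, so its place in both counts was set by the filter. Without *HSPB7* as well, 7 of 54 members were higher (13.0%) and 13 lower (24.1%). The median log2 fold change was −0.05 over the 56 members and −0.10 over all genes. Scaling by median of ratios moved the median of all genes to 0.01, and the 55 members then gave 14 higher and 9 lower calls (25.5% and 16.4%), beside 21.8% of all genes higher and 19.6% lower. Quantile normalization gave 10 higher and 10 lower (18.2% each), beside 17.98% and 18.9% of all genes. Without *HSPB7*, the higher calls were 13 of 54 (24.1%) under median of ratios and 9 of 54 (16.7%) after quantile normalization. The direction of a small difference, of about 0.1 on the log2 scale, therefore rests on the scaling.

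**Figure D2:**
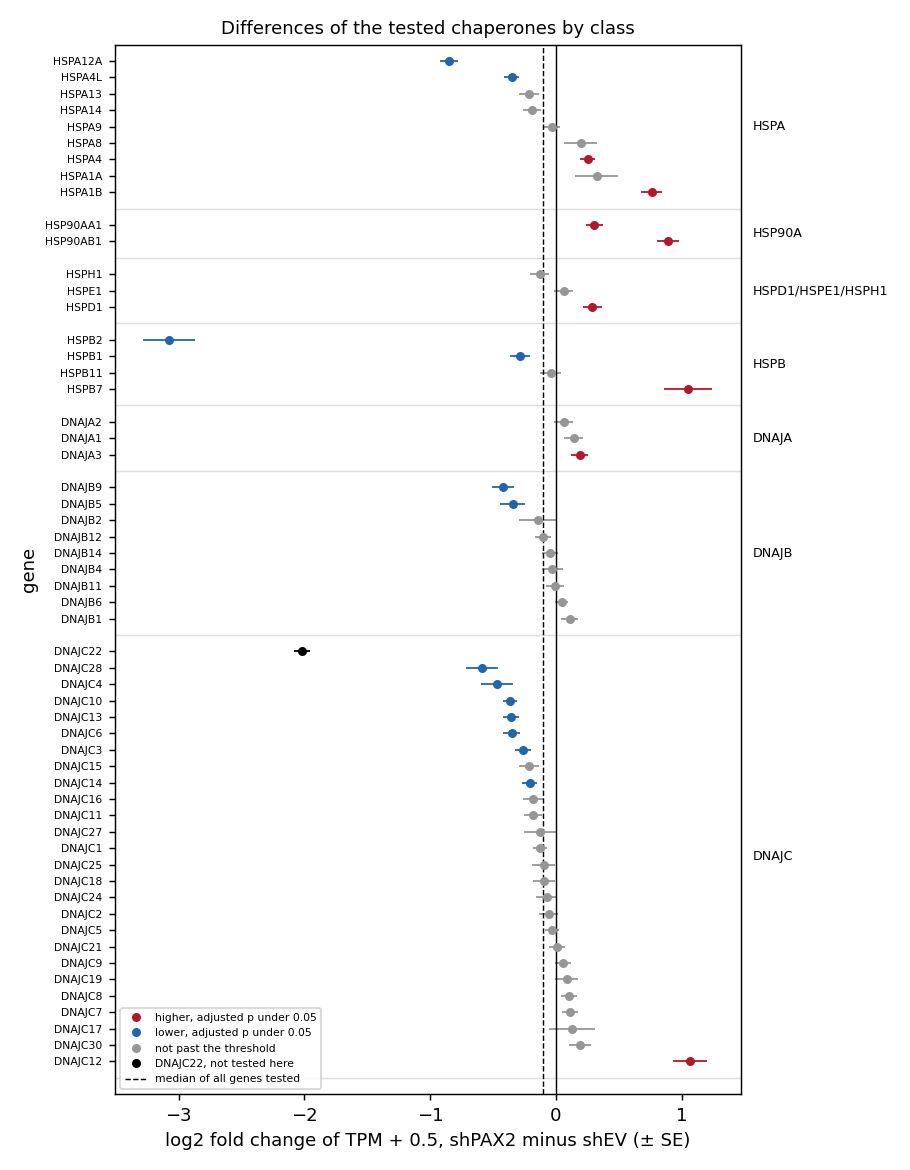
Log2 fold change of TPM + 0.5, shPAX2 minus shEV, with its SE, for the 56 tested chaperones by class, red for genes higher and blue for genes lower at an adjusted p under 0.05, grey for the rest, black for *DNAJC22*, and a dashed line at the median of all genes tested. Most points lie within 0.5 of 0, and *HSPB2* and *DNAJC22* stand apart at −3.08 and −2.02.

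Of the 25 other *DNAJC* genes, all tested, 7 (28.0%) were called lower, where 30.5% of all genes were, and 1 was called higher, where 12.2% of all genes were. The lowest were *DNAJC28* and *DNAJC4*, J proteins with few known roles. *DNAJC28* had a log2 fold change of −0.59 (SE 0.13, adjusted p = 0.00625, limma), from 3.19 ± 0.301 to 1.96 ± 0.203 TPM, and after quantile normalization it was −0.31 and no longer passed (adjusted p = 0.0755). *DNAJC4* had 28.8, 26.3 and 31.7 TPM in shEV and 23.7, 22.1 and 17.1 TPM in shPAX2. Its groups were separate, at a log2 fold change of −0.47 (adjusted p = 0.0187, limma), but its call rested on single libraries: the adjusted p was 0.0530 without shEV replicate 1 and 0.0640 without shEV replicate 3. *DNAJC4* also overlaps *NUDT22* on the same strand.

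*DNAJC6*, known as auxilin, and *DNAJC13* act in membrane traffic, the first in removing clathrin coats from vesicles and the second on endosomes. *DNAJC6* had 14.3, 14.4 and 15.5 TPM in shEV and 10.98, 11.7 and 11.7 TPM in shPAX2. The groups did not overlap, at −0.35 (SE 0.07, adjusted p = 0.00402, limma), though the adjusted p rose to 0.0769 after quantile normalization. *DNAJC13* fell from 26.1 ± 1.55 to 20.3 ± 0.650 TPM (−0.36, adjusted p = 0.00279). *GAK*, the second auxilin of the cell and not a member, was at 36.0 and 35.5 TPM (adjusted p = 0.814). *DNAJC5*, the J protein of secretory vesicles, had 39.5, 39.9 and 38.5 TPM in shEV and 38.9, 39.8 and 36.5 TPM in shPAX2, and its groups overlapped (−0.03, SE 0.06, adjusted p = 0.679).

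Several members work in the endoplasmic reticulum, a grouping made after their values were seen. *DNAJB9*, which is also known as ERdj4, had 26.9, 24.5 and 30.6 TPM in shEV and 20.2, 20.9 and 19.5 TPM in shPAX2. Every shPAX2 value lay below every shEV value, at a log2 fold change of −0.42 (SE 0.08, adjusted p = 0.00400, limma). *DNAJC10*, a reductase of disulfide bonds, fell from 40.1 ± 1.28 to 31.1 ± 0.586 TPM (−0.36, adjusted p = 0.00108), and *DNAJC3* fell from 59.3 ± 3.14 to 49.3 ± 1.40 TPM (−0.26, adjusted p = 0.00817). The call of *DNAJC3* was lost under median of ratios (adjusted p = 0.0513). *DNAJC14*, in the membrane of the reticulum, was lower at −0.21 (adjusted p = 0.0193), and this call was lost under median of ratios (adjusted p = 0.163) and without shEV replicate 3 (0.0607). *DNAJB11*, the most abundant J protein of the reticulum here, was at 160.6 and 160.3 TPM (adjusted p = 0.955). *DNAJC1* and *HSPA13* were at −0.13 (adjusted p = 0.102) and −0.21 (adjusted p = 0.0521). *DNAJB12* (−0.10, adjusted p = 0.202) and *DNAJB14* (−0.05, adjusted p = 0.577), also of the reticulum membrane, did not pass. Their partners outside the family divided in the same compartment. The exchange factors *SIL1* (−0.37, adjusted p = 0.00159) and *HYOU1* (−0.17, adjusted p = 0.0305) were lower. *SEC63*, a J protein of the reticulum whose gene is on chromosome 6, was higher (0.41, adjusted p = 0.00191). *HSPA5* (0.10, adjusted p = 0.299) and *HSP90B1* (0.13, adjusted p = 0.0840), the Hsp70 and Hsp90 of the reticulum, did not pass.

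*DNAJC12*, a J protein that binds the hydroxylases of aromatic amino acids, was the 1 *DNAJC* gene called higher. It had 2.44, 2.44 and 2.03 TPM in shEV and 4.49, 5.63 and 6.04 TPM in shPAX2. The groups did not overlap, and the log2 fold change was 1.06 (SE 0.14, adjusted p = 0.000382, limma). It stayed called in each of the 14 alternatives that tested it, at 0.95 to 1.32, and was just under the fold threshold without shEV replicate 3 (0.99) or shPAX2 replicate 3 (0.98). The 17 *DNAJC* genes not called ran from −0.21 (*DNAJC15*, of mitochondrial import) to 0.19 (*DNAJC30*, also mitochondrial). They include the most abundant of the class, *DNAJC8*, a factor of RNA splicing, at 192.6 and 206.8 TPM (adjusted p = 0.216), *DNAJC9*, a histone chaperone, at 118.8 and 123.4 TPM (adjusted p = 0.520), and *DNAJC7* at 107.0 and 115.4 TPM (adjusted p = 0.206).

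The 3 *DNAJA* genes moved little, as did the tested *DNAJB* genes other than *DNAJB5* and *DNAJB9*. *DNAJA1*, a general cytosolic J protein, had 318.6, 302.0 and 310.5 TPM in shEV and 307.4, 366.9 and 355.5 TPM in shPAX2. Its groups overlapped through shPAX2 replicate 1 (0.14, SE 0.07, adjusted p = 0.155), and without that library the adjusted p was 0.0109 at 0.22. *DNAJA3*, its mitochondrial relative, was called higher at 0.19 (adjusted p = 0.0460), a call that was lost in 8 of 15 alternatives, among them the removal of any 1 library other than shPAX2 replicate 1 (adjusted p of 0.0571 to 0.184). *DNAJB1*, the main heat-inducible J protein, had 144.0, 133.6 and 127.3 TPM in shEV and 136.1, 148.9 and 151.4 TPM in shPAX2, again with overlap (0.11, SE 0.07, adjusted p = 0.234). *DNAJB5* was lower at −0.34 (adjusted p = 0.0222), and this call was lost under both other scalings and without shEV replicate 1 (adjusted p = 0.0505), shEV replicate 2 (0.0771) or shPAX2 replicate 2 (0.0786). Of the 9 *DNAJB* genes tested, *DNAJB5* and *DNAJB9* were the 2 called, both lower (22.2%), where 30.5% of all genes were lower.

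Hsp90 had the largest difference in absolute level. *HSP90AB1*, the constitutive cytosolic Hsp90 at chr6:44213903-44221625 (plus strand, GRCh37), had 1588, 1602 and 1631 TPM in shEV and 2593, 3200 and 3189 TPM in shPAX2. Even the lowest shPAX2 library was far above every shEV library. The mean rose from 1607 ± 22.1 to 2994 ± 347 TPM (SD, n = 3), a log2 fold change of 0.89 (SE 0.08, adjusted p = 7.28e-05, limma). *HSP90AA1*, its heat-inducible paralog at chr14:102547079-102606036 (minus strand), had 402.1, 386.4 and 353.4 TPM in shEV and 439.5, 483.6 and 488.4 TPM in shPAX2. It was higher too, by less, at 0.31 (SE 0.07, adjusted p = 0.00797). The ratio of *HSP90AB1* to *HSP90AA1* was 3.95, 4.15 and 4.61 in shEV and 5.90, 6.62 and 6.53 in shPAX2, so the pair shifted further toward the constitutive form in every shPAX2 library.

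*HSP90AB1* and the *HSPA1* genes lie on chromosome 6, whose genes as a whole were higher in shPAX2. The median log2 fold change was 0.39 over the 635 tested genes placed on chromosome 6 and −0.11 over the 11996 placed elsewhere. *HSP90AB1* was 0.50 above the chromosome 6 median, and 6.46% of chromosome 6 genes were above it. *HSPA1B* was 0.37 above that median, with 12.8% of chromosome 6 genes above it, and *HSPA1A* was at −0.07 relative to it. The place of *HSPA1A*, at about the level of the pseudocount, turned with the processing: it was 0.10 above the chromosome 6 median with a pseudocount of 0.1, 0.03 above it after quantile normalization and 0.19 above it with voom on the recovered reads. The part of this chromosome-wide shift in the differences of these 3 genes was not tested. Without the members on chromosome 6, 6 of 53 tested members (11.3%, *DNAJC22* and *HSPB7* counted) were called higher, beside 12.2% of all genes tested. The share over genes outside chromosome 6 alone was not counted.

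**Figure D3:**
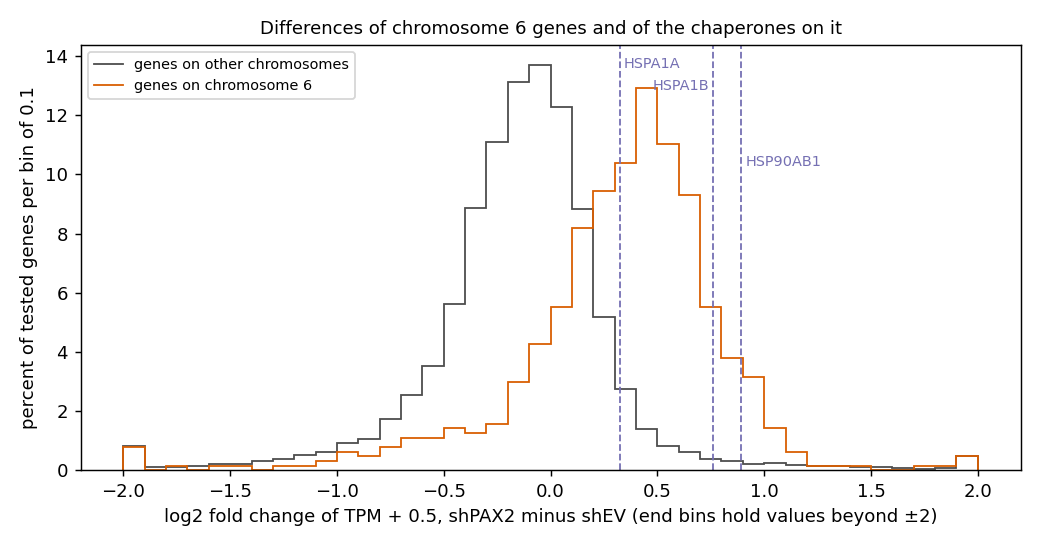
Distribution of log2 fold changes (TPM + 0.5, shPAX2 minus shEV) in bins of 0.1, as the percent of tested genes, for genes on chromosome 6 in orange and on other chromosomes in grey, with dashed lines at the chaperones tested there. The orange curve lies to the right, with a median of 0.39 against −0.11, and *HSPA1A*, whose place turns with the pseudocount, falls near its middle at 0.32 while *HSPA1B* and *HSP90AB1* lie in its right flank.

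*HSPA8*, the constitutive Hsp70 and the most abundant member, had 3070, 2949 and 2919 TPM in shEV and 2718, 3733 and 3927 TPM in shPAX2. The groups overlapped, because shPAX2 replicate 1 lay below every shEV library and the others lay above, and the difference of 0.20 (SE 0.13, adjusted p = 0.269, limma) did not pass. Without shPAX2 replicate 1 it was 0.36 (adjusted p = 0.00126). That library was the lowest of its group in 13 of the 14 members with a mean of at least 100 TPM, in all 24 partner genes at that level (listed below), and in 60.6% of all 1575 tested genes at that level. Without it, and with *DNAJC22* aside, 10 of 54 tested members were called higher and 14 lower (18.5% and 25.9%), beside 13.9% and 29.6% of all genes.

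*HSPA1A* and *HSPA1B*, neighbouring copies of the heat-inducible Hsp70, were low in TPM, which may be understated for both, as said above. Recovered reads per library ran from 734 to 3683 for *HSPA1B* and from 34 to 168 for *HSPA1A*. *HSPA1B* (chr6:31795515-31798031, plus strand, GRCh37) had 10.8, 11.5 and 11.2 TPM in shEV and 17.8, 21.7 and 18.7 TPM in shPAX2. All shPAX2 values were above all shEV values, at a log2 fold change of 0.76 (SE 0.08, adjusted p = 0.000176, limma). *HSPA1A* had 0.521, 0.447 and 0.538 TPM in shEV and 0.904, 0.721 and 0.650 TPM in shPAX2, higher in each shPAX2 library but with an adjusted p of 0.152 (0.32, SE 0.17). It was called higher after quantile normalization (0.54, adjusted p = 0.0362), without the trend and robust steps (adjusted p = 0.0304) and with voom on the recovered reads (0.63, adjusted p = 0.0194). Of the 75-base windows of the longest *HSPA1A* transcript, 73.8% also occur in *HSPA1B*, and 70.2% of those of *HSPA1B* occur in *HSPA1A*, so the split of reads between them is uncertain. Their sum was 11.4, 11.9 and 11.7 TPM in shEV and 18.7, 22.4 and 19.4 TPM in shPAX2. *HSPA6*, an Hsp70 copy that is hardly expressed without stress, had 0 reads in 5 libraries and 1 read in shPAX2 replicate 2.

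Among the remaining Hsp70 genes the exchange factors of the Hsp110 kind went different ways. *HSPA4* had 345.6, 333.3 and 330.0 TPM in shEV and 381.0, 420.0 and 401.2 TPM in shPAX2. It was called higher at 0.25 (SE 0.06, adjusted p = 0.00870, limma), with an adjusted p of 0.0508 without shPAX2 replicate 2. *HSPA4L* was lower, from 69.0 ± 3.17 to 54.1 ± 2.08 TPM (−0.35, SE 0.06, adjusted p = 0.00187). *HSPH1* had 27.2, 24.0 and 25.5 TPM in shEV and 21.6, 24.4 and 24.0 TPM in shPAX2, with overlap between the groups (−0.13, SE 0.07, adjusted p = 0.189). *HSPA12A*, a distant relative of Hsp70 at chr10:118430703-118609762 (minus strand), had the largest decrease of its class. It had 24.0, 23.2 and 24.4 TPM in shEV and 14.2, 12.6 and 12.4 TPM in shPAX2, a log2 fold change of −0.85 (SE 0.07, adjusted p = 3.84e-05).

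In mitochondria, *HSPD1* (Hsp60) had 692.1, 681.5 and 726.0 TPM in shEV and 772.7, 911.4 and 888.2 TPM in shPAX2. The groups did not overlap and the gene was called higher at 0.29 (SE 0.07, adjusted p = 0.0120, limma). The adjusted p was 0.0522 without shEV replicate 2 and 0.0575 without shPAX2 replicate 2. Its partner *HSPE1* (Hsp10), which overlaps the read-through gene *HSPE1-MOB4*, had 331.9, 318.6 and 327.3 TPM in shEV and 307.4, 342.1 and 373.6 TPM in shPAX2, a wider spread that overlapped the control (0.06, SE 0.08, adjusted p = 0.545). *HSPA9*, the mitochondrial Hsp70, had 473.0, 470.4 and 466.8 TPM in shEV and 424.0, 472.9 and 485.9 TPM in shPAX2, also with overlap (−0.03, SE 0.06, adjusted p = 0.730).

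The small heat shock proteins held the largest fold change of the family. *HSPB2*, known from muscle, lies at chr11:111783458-111784817 on the plus strand (GRCh37), beside *CRYAB* on the other strand. It had 17.3, 19.5 and 14.0 TPM in shEV and 1.01, 1.94 and 1.83 TPM in shPAX2. The groups were far apart, with the shPAX2 mean at 9.42% of the control, and the log2 fold change was −3.08 (SE 0.20, adjusted p = 2.91e-05, limma), the 19th from the lowest of all genes tested. *CRYAB*, the small heat shock protein alpha-B crystallin, which the name rule leaves out, had 254.7, 195.8 and 192.5 TPM in shEV and 38.7, 80.0 and 82.2 TPM in shPAX2 (−1.74, SE 0.35, adjusted p = 0.0178). *HSPB2* was 6.78%, 9.96% and 7.25% of *CRYAB* in shEV and 2.61%, 2.43% and 2.22% in shPAX2. *HSPB2* overlaps *CRYAB* on the opposite strand and the read-through gene *HSPB2-C11orf52* on its own strand, and how reads in the overlap were assigned is not given in the sources used here.

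*HSPB1* (Hsp27), the most abundant small heat shock protein, had 495.4, 489.3 and 470.0 TPM in shEV and 358.4, 401.9 and 436.9 TPM in shPAX2. It was called lower at −0.29 (SE 0.08, adjusted p = 0.0158, limma), and this call was lost under median of ratios (adjusted p = 0.102) and without shEV replicate 2 (0.0565). *HSPB7*, known from heart muscle, was near the detection limit, with 4, 6 and 4 reads in shEV and 48, 28 and 33 reads in shPAX2, or 0.258, 0.235 and 0.153 TPM and 1.08, 0.718 and 1.17 TPM. Its log2 fold change was 1.05 (SE 0.19), but it passed the filter through the shPAX2 libraries alone and so had to differ. No p-value is therefore given for *HSPB7*, and it did not enter the fit when any shPAX2 library was left out. Without shEV replicate 3 its log2 fold change was 0.99, and with a pseudocount of 1 it was 0.71, both under the fold threshold. With a pseudocount of 0.1 it was 1.78, and with voom on the recovered reads 2.11. *HSPB11*, a subunit of intraflagellar transport, was at 47.3 and 45.9 TPM (adjusted p = 0.721).

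The 10 members below the filter were *HSPA1L*, *HSPA2*, *HSPA6*, *HSPA12B*, *HSPB3*, *HSPB6*, *HSPB8*, *HSPB9*, the pseudogene *HSP90AB4P* and *DNAJB13*. All but *DNAJB13* stayed under 0.5 TPM in at least 5 libraries. *HSPA1L*, whose TPM may be understated, had 6 to 23 reads. *DNAJB13*, known from the radial spokes of sperm and cilia, had 0 reads in each shEV library and 11, 22 and 12 reads in the shPAX2 libraries (0.383, 0.870 and 0.656 TPM). With a floor of 3 reads in each shEV library, the shPAX2 mean of 0.637 TPM was 2.91-fold the mean shEV floor of 0.219 TPM. The counting error of the shPAX2 reads was not allowed for, so this is no lower bound. *DNAJB13* was not tested, and the floor covers counting error in the shEV libraries only.

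Summed over the 66 members, chaperone transcripts took 0.985%, 0.960% and 0.968% of all TPM in shEV and 1.02%, 1.24% and 1.26% in shPAX2. *HSP90AB1* carried most of the difference: the sum went from 9710 ± 127 to 11718 ± 1282 TPM (SD, n = 3), and from 8103 ± 140 to 8724 ± 937 TPM without that gene. The *HSP90A* sum rose from 1988 to 3465 TPM. The *HSPA* sum, mostly *HSPA8*, was 4111, 3966 and 3944 TPM in shEV and 3711, 4812 and 5005 TPM in shPAX2, so the groups overlapped. The summed *DNAJ* genes were 2114 ± 39.8 TPM in shEV and 2074 ± 77.2 TPM in shPAX2, of which *DNAJC22* was 69.8 and 16.9 TPM. The *HSPB* sum was 550 ± 11.1 and 448 ± 39.1 TPM.

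**Figure D4:**
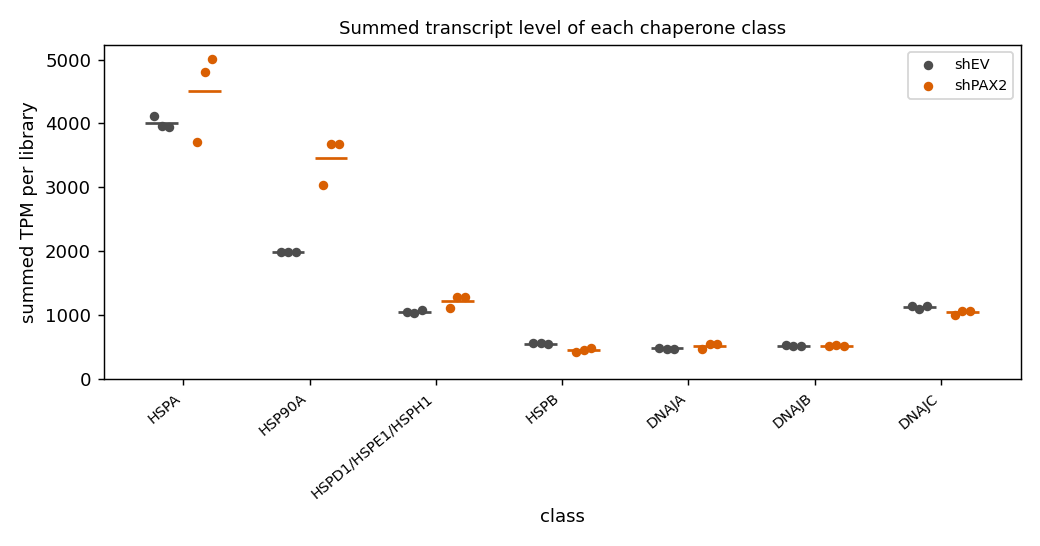
Summed TPM of each chaperone class in each library, grey for shEV and orange for shPAX2, with a short line at each group mean. The *HSP90A* points separate most, at 1984 to 1990 TPM in shEV and 3033 to 3684 TPM in shPAX2, and shPAX2 replicate 1 is the lowest orange point in 6 of the 7 classes.

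The proteins that work with these chaperones were followed through 53 partner genes, all of which passed the filter. Of these, 19 (35.8%) were called higher and 6 (11.3%) lower (limma), beside 12.2% and 30.5% of all genes, and their median log2 fold change was 0.13. Median of ratios gave 31 higher and 4 lower (58.5% and 7.55%), beside 21.8% and 19.6% of all genes, and quantile normalization 22 and 5 (41.5% and 9.43%), beside 17.98% and 18.9%. Outside chromosome 6, 14 of 46 were higher (30.4%) and 6 lower (13.0%), beside the 12.2% and 30.5% of all genes, which include those on chromosome 6. The share over genes outside chromosome 6 alone was not counted.

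The 8 subunits of the cytosolic chaperonin, the ring that folds actin and tubulin, lay above 0 without exception. Of these, 7 (87.5%) were called higher, where 12.2% of all genes were. *TCP1*, on chromosome 6, had 497.4, 447.8 and 453.8 TPM in shEV and 674.7, 762.1 and 789.4 TPM in shPAX2 (0.67, SE 0.08, adjusted p = 0.000194, limma). The 6 other subunits called ran from 0.26 (*CCT5*) to 0.38 (*CCT3*), and *CCT8* was at 0.02 (adjusted p = 0.857). Of the 12 Hsp90 partners, 5 were called, all higher (41.7%), where 12.2% of all genes were higher. They were the kinase adaptor *CDC37* (0.25, adjusted p = 0.0101), the ATPase activator *AHSA1* (0.30, adjusted p = 0.00811), the p23 gene *PTGES3* (0.44, adjusted p = 0.000827), the phosphatase *PPP5C* (0.24, adjusted p = 0.0190) and *CHORDC1* (0.34, adjusted p = 0.0161). The immunophilins *FKBP4* and *FKBP5*, which join Hsp90 on steroid receptors, were at 0.04 (adjusted p = 0.667) and 0.10 (adjusted p = 0.201).

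Of the 14 Hsp70 partners, 3 were higher and 3 lower (21.4% each), beside 12.2% and 30.5% of all genes. *STIP1*, the link between Hsp70 and Hsp90, was higher at 0.27 (adjusted p = 0.00848, limma), as were the ubiquitin ligase *STUB1* (0.20, adjusted p = 0.0140) and *BAG6* (0.45, adjusted p = 0.000501), which is on chromosome 6. *BAG1*, an exchange factor, was lower at −0.27 (adjusted p = 0.00657), with *SIL1* and *HYOU1* described above. *BAG3*, an exchange factor induced by heat, was at 39.6 and 42.7 TPM (adjusted p = 0.338). Of the 6 prefoldin genes, whose complex hands actin and tubulin to the chaperonin, *PFDN6* on chromosome 6 was higher (0.52, adjusted p = 0.000908) and *PFDN5* lower (−0.31, adjusted p = 0.00225). *HSF1*, the main heat shock factor, was at 46.4 ± 0.944 and 48.5 ± 0.331 TPM (0.06, SE 0.05, adjusted p = 0.348). *HSF2*, on chromosome 6, was higher (0.43, adjusted p = 0.000553) and *HSF4* lower, from 4.29 ± 1.25 to 2.14 ± 0.303 TPM (−0.83, adjusted p = 0.0101).

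**Figure D5:**
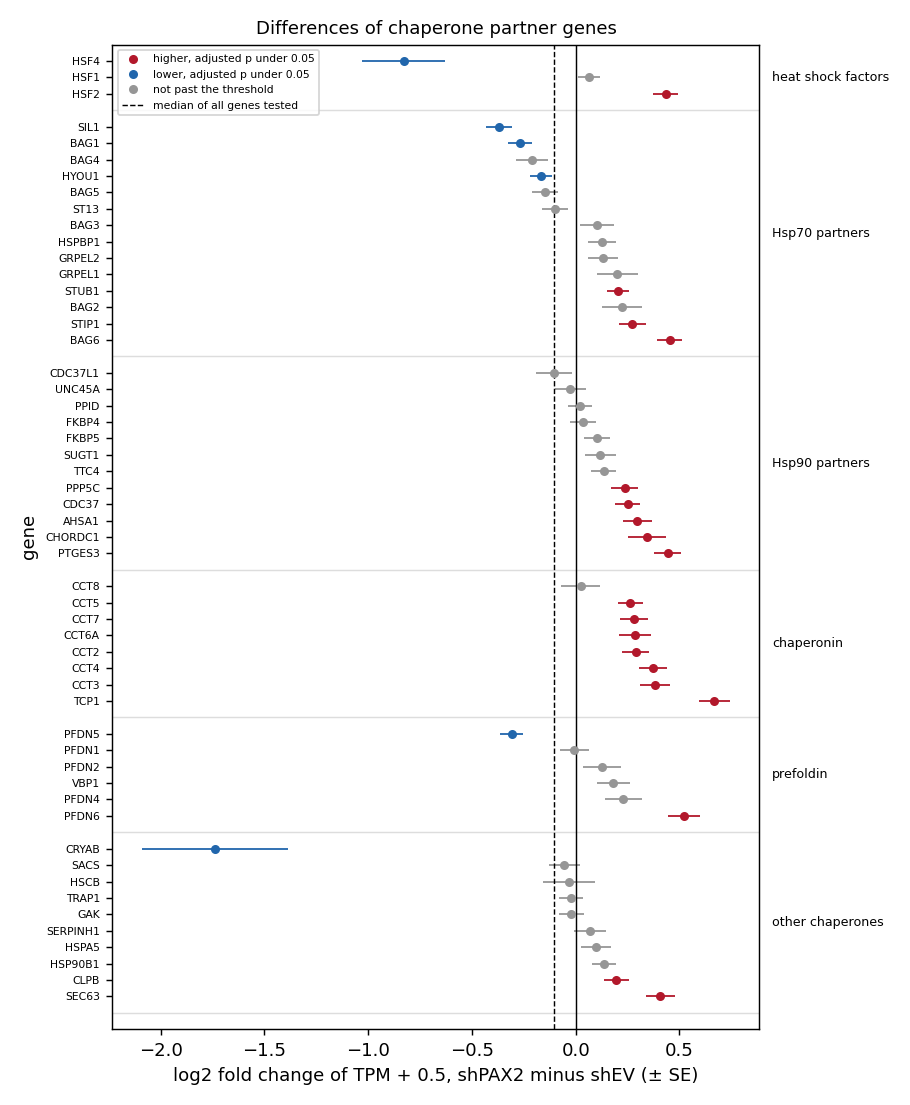
Log2 fold change of TPM + 0.5, shPAX2 minus shEV, with its SE, for the 53 partner genes by list, red for genes higher and blue for genes lower at an adjusted p under 0.05, grey for the rest, and a dashed line at the median of all genes tested. The chaperonin points all lie to the right of 0, and *CRYAB* stands apart at −1.74.

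Heat shock factors bind 3 or more GAA units that alternate in direction, each separated from the next by a pair of bases. This element (GAA, TTC and GAA, or TTC, GAA and TTC, with any 2 bases between units, which covers both strands) was searched in RefSeq promoters of assembly GRCh38.p14, from 250 bases before to 50 bases after each gene's start. Of the 66 members, 58 had a promoter in that table, and 7 of them (12.1%) held the element, against 166 of 27305 genes (0.608%). *DNAJC22*, *HSPB2* and the partner gene *CRYAB* had no promoter there and were not searched. The matches overlapped each other in *HSPD1*. The stretches around the elements are shown because they set *HSP90AB1*, *HSP90AA1* and *HSPD1*, called higher above, beside 4 genes with the same element that did not pass in this fit or were hardly detected. They read 5′ to 3′ on the strand of the gene, with the element in capitals, at chr6:44247758-44247863 (plus strand), chr14:102087100-102087152 (minus), chr2:197500048-197500090 (minus), chr11:123062159-123062386 (minus), chr1:161524446-161524498 (plus), chr9:33025256-33025308 (plus) and chr7:157336853-157336905 (plus), in the order of the lines.
HSP90AB1: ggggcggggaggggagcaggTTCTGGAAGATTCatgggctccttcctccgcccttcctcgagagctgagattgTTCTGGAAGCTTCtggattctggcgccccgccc
HSP90AA1: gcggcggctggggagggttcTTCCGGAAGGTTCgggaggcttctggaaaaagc
HSPD1: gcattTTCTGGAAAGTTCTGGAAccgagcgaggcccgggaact
HSPA8: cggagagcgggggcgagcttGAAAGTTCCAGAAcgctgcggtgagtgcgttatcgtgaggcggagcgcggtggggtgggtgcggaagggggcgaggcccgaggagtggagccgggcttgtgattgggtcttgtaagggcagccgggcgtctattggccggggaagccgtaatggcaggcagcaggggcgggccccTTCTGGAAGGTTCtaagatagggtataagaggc
HSPA6: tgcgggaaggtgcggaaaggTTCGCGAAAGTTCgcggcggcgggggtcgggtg
DNAJA1: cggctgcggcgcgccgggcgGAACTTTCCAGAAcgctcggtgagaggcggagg
DNAJB6: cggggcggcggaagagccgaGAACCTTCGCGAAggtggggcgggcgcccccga

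Of these 7 genes, 3 were called higher, where 12.2% of all genes tested were, and *HSP90AB1* among them lies on chromosome 6. *HSPA8*, *DNAJA1* and *DNAJB6* (0.05, SE 0.05, adjusted p = 0.497, limma) did not pass, and *HSPA6* had at most 1 read in any library. Whether the element goes with a difference was not tested. Under median of ratios, where 21.8% of all genes were called higher, so were *DNAJA1* (0.25, adjusted p = 0.0193) and *DNAJB6* (0.16, adjusted p = 0.0316). Without shPAX2 replicate 1, where 13.9% of all genes were called higher, so were *HSPA8* (adjusted p = 0.00126) and *DNAJA1* (0.0109). *HSP90AB1*, *HSPD1* and *HSPA8* held 2 matches each. *HSPA1B*, *DNAJB1* and *HSPH1*, which respond to heat in many cells, did not hold these letters in the windows searched. Among the partners, 2 of 41 with a promoter held the element, *CHORDC1*, called higher above, and *SERPINH1*, the collagen chaperone, at 531 and 558 TPM (adjusted p = 0.509). A match describes the letters of the window, and binding of a factor there was not measured.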

How the data were processed

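RNA-seq of 3 shEV and 3 shPAX2 AN3CA libraries was analysed from 1 table of TPM values deposited by the authors for 17471 genes. Per the labels, libraries were made with a stranded total RNA kit, and the submitters' processing notes name bcl2fastq, STAR, Subread, featureCounts, edgeR and the build hg19, with no versions or roles. Counting tool and strand setting for these values are not given in the sources used here. Within each gene the deposited TPM values were in whole-number ratios between libraries (tolerance 1e-09, 100% of genes). The smallest whole numbers in these ratios were taken as the reads of the gene and summed to read totals. They are lower bounds, since reads that share a factor are undercounted. A gene seen in 1 library always matches and is given 1 read.

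Genes at 0.5 TPM or more in at least 3 libraries entered limma 3.58.1 in R 4.3.3 on log2(TPM + 0.5), with linear models moderated by a robust empirical Bayes step that follows the mean trend, two-sided, with Benjamini-Hochberg adjustment over all 13163 genes tested. A call is an adjusted p under 0.05. The fold threshold is an absolute log2 fold change of 1. The pseudocount understates the change of low genes. The members, the partner and marker lists and the naming rule were chosen with earlier results of these data known. Values per library were given for *DNAJC22*, for members past the fold threshold, for 14 set members, and for the 5 highest and 5 lowest called members with a mean of at least 5 TPM. Gene positions are from GENCODE release 44 on GRCh37, with 15324 symbols matched directly and 1238 through an older symbol. The fit was tested on simulated reads. Alternatives were another pseudocount, filter, scaling or variance model, a replicate block, each library left out, and, chosen after seeing the data, voom on the recovered reads.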

Additional observations from a re-analysis of the deposited data

How the results depend on the processing

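Of the named members called, *HSPB2*, *HSPA12A*, *HSPA4L*, *HSPA1B*, *HSP90AB1*, *HSP90AA1*, *DNAJB9*, *DNAJC10*, *DNAJC12* and *DNAJC13* kept direction and call under every alternative in which they were tested. *DNAJC22* was at −1.91 under median of ratios and −1.95 after quantile normalization. Median of ratios gave 14 members and 31 partners higher, and quantile normalization brought the members' median difference from all genes to 0.0132. Members past the fold threshold, with *DNAJC22* counted, numbered 2 with a pseudocount of 1 or a filter of 5 TPM, and 2 to 4 with 1 library left out, and members called higher 4 to 10. Differences near 0 changed sign: *DNAJC5* was 0.0787 under median of ratios and 0.0173 after quantile normalization, *HSPA9* was 0.0819 under median of ratios, and leaving out 1 library gave −0.0588 to 0.00278 for *DNAJC5*, −0.0701 to 0.0282 for *HSPA9* and −0.00703 to 0.133 for *HSPE1*. The cause was not tested. *PAX2* was not tested under the filter of 5 TPM. Deviations of same-numbered libraries correlated at −0.05, 0.08 and 0.00140. These values show no shared deviation by number, but cannot tell whether same-numbered libraries were prepared together. A replicate block gave 21 members called (7 higher, and 14 lower with *DNAJC22* counted) and ended the calls of *DNAJC4* (adjusted p = 0.0514) and *DNAJA3* (0.0526). For fits with a block or a library left out, the share of all genes called is given only without shPAX2 replicate 1, above. Depth limits members under 0.5 TPM, where a few reads decide the value.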

Other observations

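Values of genes next to *DNAJC22* and *HSPB2* on the chromosome follow, chosen after the values were seen and given with no explanation. Beside *DNAJC22*, *C1QL4* lay 9700 bases away and had 101, 85.6 and 87.0 TPM in shEV and 29.7, 26.8 and 26.1 TPM in shPAX2, a log2 fold change of −1.71 (adjusted p = 1.25e-06, limma). *PRPH*, the neuronal intermediate filament peripherin, lay 48202 bases away and was lower (−0.61, adjusted p = 0.00167), and *TUBA1C*, an alpha tubulin 72288 bases away, was higher (0.36, adjusted p = 0.0136). *SPATS2* (−0.18, adjusted p = 0.0692) and *TROAP* (−0.03, adjusted p = 0.690), at 9038 and 15157 bases, did not pass.

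Around *HSPB2*, the read-through gene *HSPB2-C11orf52* fell from 2.80 ± 0.620 to 0.160 ± 0.0649 TPM (SD, n = 3), with a log2 fold change of −2.31 (adjusted p = 2.91e-05, limma). *DIXDC1*, 13051 bases away, and *C11orf1*, 26759 bases away, were lower at −0.49 (adjusted p = 0.000601) and −0.40 (adjusted p = 0.00984). *FDXACB1*, 31491 bases away, was higher at 0.55 (adjusted p = 0.00179), and *ALG9*, 41153 bases away, was at 0.01 (adjusted p = 0.877).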
